A study of Mus musculus with 48 samples.

Results

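The subject is 9 genes of TGF-beta and activin signalling, Tgfb1, Tgfb2, Tgfb3, Inhba, Tgfbr1, Tgfbr2, Smad7, Skil and Tgfbi, chosen by symbol. All 9 were listed among the 20300 genes of the mix counts table and the 14363 genes of the CD11b counts table. TGF-beta is secreted in a latent form, and once released it binds the type II receptor Tgfbr2, which activates the type I receptor Tgfbr1. The receptors then phosphorylate SMAD proteins that enter the nucleus, and activins, dimers of inhibin beta chains such as the product of Inhba, reach the same SMADs through receptors of their own. In the brain the pathway is known for keeping the microglial program, and in tumors for restraining T cells and shaping vessels and matrix.

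The data were single-cell 3′ RNA counts from brains of male C57BL/6 mice, 6 weeks old, carrying tumors of GL261, a mouse glioblastoma line, injected into the striatum. The line carried a retroviral negative-control shRNA (shNC) or an shRNA against Selp, the P-selectin gene (shSELP), so that the host cells of both groups were wild type, and 3 brains were pooled per group. In the mix experiment (day 16 in the labels) CD11b-positive cells, the remaining CD45-positive cells and the rest were combined in equal amounts, so that numbers of cells describe that mixture. It gave 2 libraries per group. In the CD11b experiment (day 21 in the labels) only CD11b-positive cells were taken, with 1 library per group. The methods of the study give day 17 for the mice of both experiments, so a difference in day rests on the labels alone. The labels name the v2 kit and the methods v3. The records do not say if the 2 mix libraries of a group had pools of their own, so the tests between groups measure a difference against the spread between libraries. Of the 8 entries of the CD11b shSELP library, 7 have a description line that names the negative control. The direction of the CD11b comparison therefore rests on titles, source names, genotypes and the column prefixes of the counts.

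After removal of barcodes under 500 genes or over 10% mitochondrial UMIs, cells were gated into classes on markers that exclude the 9 genes. No doublets were called or removed, so a gated cell with markers of another class may be a doublet. The mix libraries kept 2183 and 2179 cells (shNC 1 and 2) and 2190 and 2174 (shSELP 1 and 2), with 22874762, 22546742, 17323095 and 25512125 UMIs (unique molecular identifiers, counted RNA molecules). The CD11b libraries held 2731 (shNC) and 2804 (shSELP) cells with 12532788 and 11406051 UMIs. In the order shNC 1, shNC 2, shSELP 1, shSELP 2, the mix gave 295, 204, 68 and 90 tumor-gated cells, 655, 619, 376 and 666 macrophage-gated cells, and 119, 150, 342 and 189 microglia-gated cells. It also gave 436, 429, 393 and 447 T-gated cells and 28, 45, 429 and 104 vascular-gated cells (endothelial and mural). Tumor-gated cells of shSELP 2 were shallow, with a median of 4630 UMIs against 12577 to 15783 in the other libraries, and shSELP 1 held most of the vascular-gated cells. Between 326 and 399 kept cells of each mix library went to no class. The mix libraries shared 5 cell barcodes and the CD11b libraries 3.

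The gated classes carried their markers, with an admixture in microglia. Levels are CPM, UMIs of a gene per 1e6 UMIs of all cells of a class in a library. The 8 microglia markers summed to 4762, 4931, 6066 and 4975 CPM in microglia-gated cells and to between 636 and 744 CPM in macrophage-gated cells. The 8 macrophage markers summed to 2842, 1980.0, 2744 and 1951 CPM in microglia-gated cells, in which Lyz2 was the most abundant with 2404, 1429, 2298 and 1681 CPM. In tumor-gated cells the 8 tumor markers summed to 2931, 2194, 1786 and 1960.0 CPM, none of them at 0.

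Selp itself was barely detected in the tumor-gated cells. It had 1 UMI in each shNC library and 0 in each shSELP library, and the 0 counts allow up to 3.55 and 4.17 CPM (3 counts), above the 0.229 and 0.335 CPM of the shNC libraries. The knockdown was therefore not detectable at this depth. Endothelial-gated cells had more Selp UMIs, 8, 12, 15 and 7, or 67.5, 59.8, 9.48 and 14.5 CPM. In each library these were in 2 cells, so the values do not describe the class.

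Each member differed between some of the 5 classes, and several neighbours in level were not separated. Differences between classes were tested in 1 edgeR fit over the 20 sums of a class in a mix library, with the library as a term and all 12099 genes tested, and a gene was called at an adjusted p under 0.05. The fit also rescales the sums (TMM), which the CPM levels do not, so a fitted difference can depart from that of the mean CPM in size or sign. All 9 members passed the filter on low counts, and 68 of the 90 differences between a pair of classes were called. Most genes differ between such classes, so these counts are to be read against the share of all genes. Between tumor-gated and other cells, members called were 8 for macrophages (70.5% of all genes called), 8 for microglia (65.2%), 7 for T cells (65.5%) and 6 for vascular cells (56.7%). Macrophage-gated cells differed from microglia in 6 members (32.5%), from T cells in 7 (60.0%) and from vascular cells in 8 (62.2%). Microglia-gated cells differed from T cells in 5 (58.9%) and from vascular cells in 6 (55.2%), and T-gated from vascular-gated cells in 7 (61.9%).

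**Figure D1:**
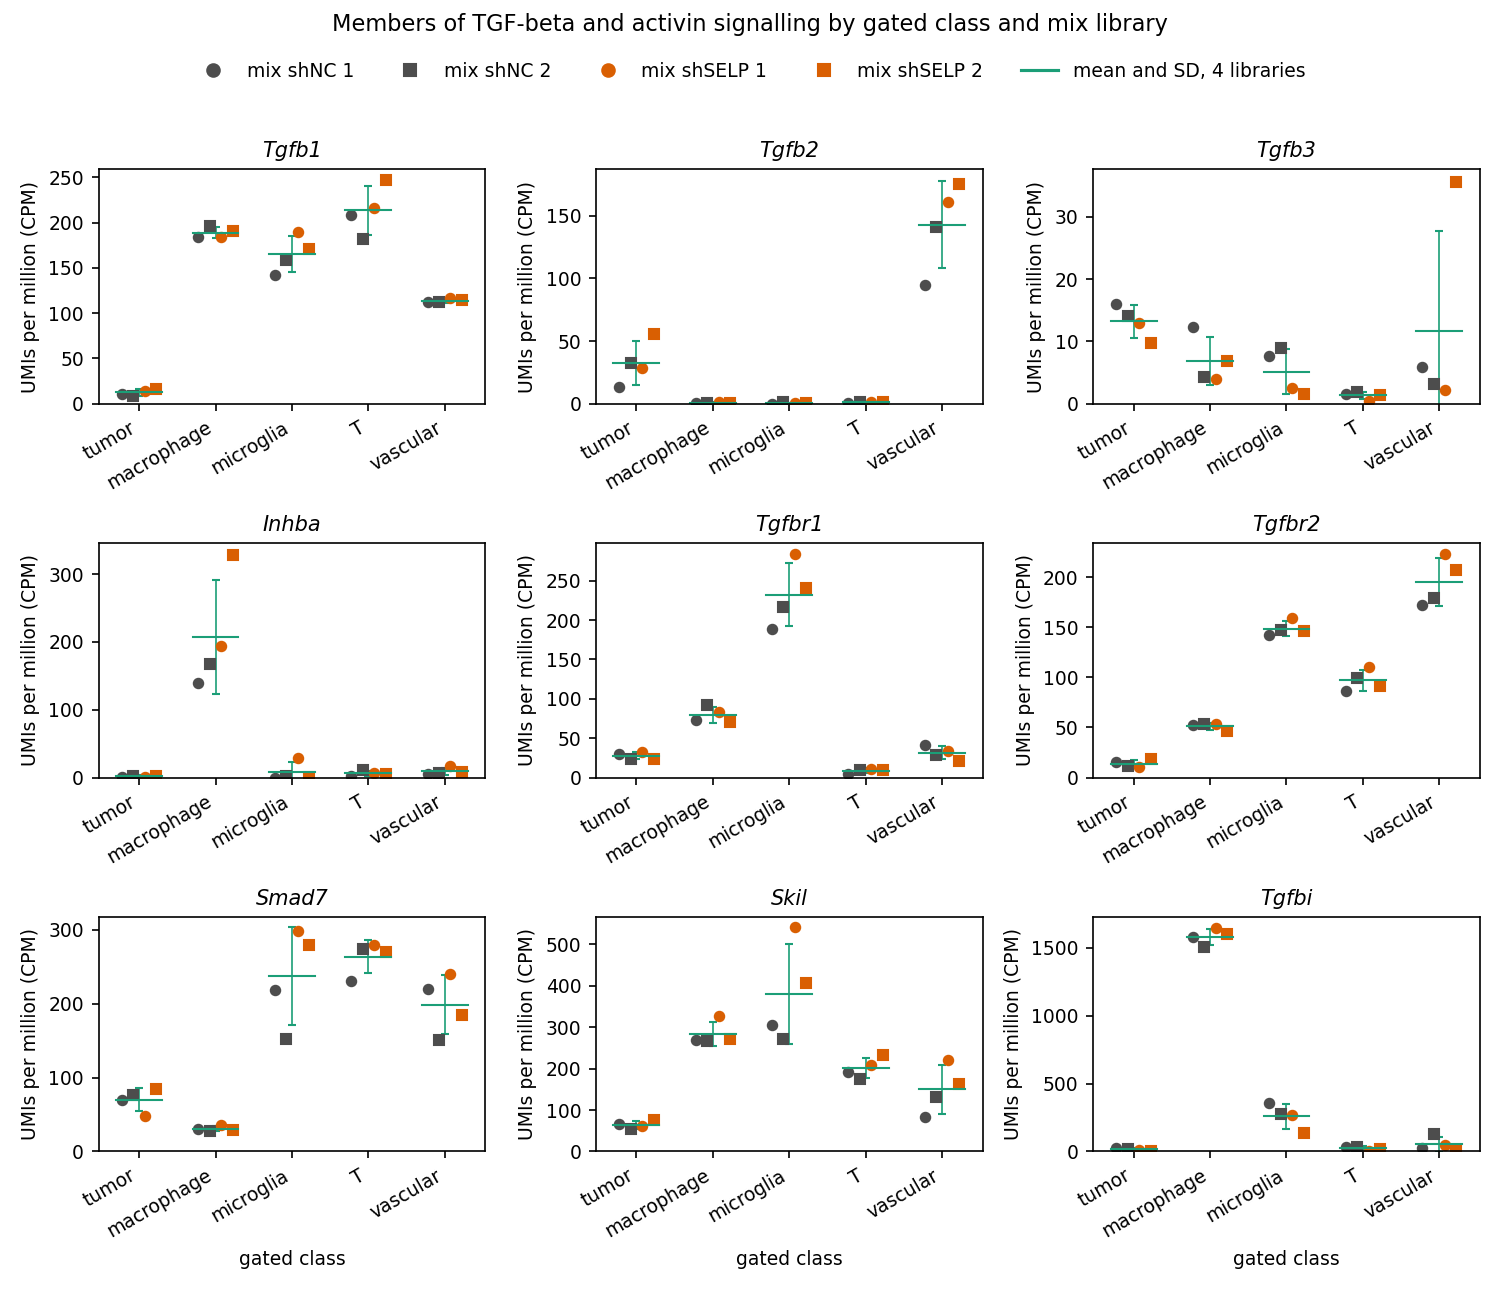
Level of each member (CPM) in the 5 gated classes of the 4 mix libraries. Points are libraries (grey shNC, orange shSELP), green lines the mean and SD of 4 libraries. Inhba and Tgfbi are highest in macrophage-gated cells, Tgfbr1 in microglia-gated cells and Tgfb2 in vascular-gated cells.

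The ligand genes were divided between the classes. Tgfb1, the TGF-beta isoform typical of immune cells (mm10, chromosome 7, 25687002 to 25705077), was present in all immune classes and low in tumor-gated cells. Its level was 208, 182, 216 and 247 CPM in T-gated cells (shNC 1, shNC 2, shSELP 1, shSELP 2), 184, 197, 184 and 191 CPM in macrophage-gated cells, and 142, 159, 190.0 and 171 CPM in microglia-gated cells. In vascular-gated cells it was 113, 112, 117 and 114 CPM, and in tumor-gated cells 10.6, 8.38, 14.2 and 16.7 CPM. All tumor values lay below all values of the other 4 classes. T-gated cells (mean 213.5 ± 26.6 CPM, SD, n = 4 libraries) were not separated from macrophages (189 ± 6.11; adjusted p = 0.0595 in edgeR, with the sign of the fitted difference, -0.24 for T minus macrophage on the log2 scale, opposite to that of the means) or from microglia (165 ± 20.3; adjusted p = 0.199). Macrophages exceeded microglia by 0.41 ± 0.11 (log2, SE; edgeR adjusted p = 0.00590), a call lost without shNC 1 (0.35, adjusted p = 0.0517). Outside these classes, NK-gated cells had more, 447 ± 78.4 CPM. When each cell was thinned to 2000 UMIs, 26.1% (exact 95% interval 21.9 to 30.6) to 38.7% (34.1 to 43.4) of T-gated cells had a Tgfb1 UMI in the 4 libraries and 1.64% (0.339 to 4.72) to 5.26% (1.10 to 14.6) of tumor-gated cells, at median depths before thinning of at most 7634 and of 6746 to 16922 UMIs.

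Tgfb2, an isoform of neural and mesenchymal tissues (chromosome 1, 186622792 to 186705989), was found in vascular-gated and tumor-gated cells among the 5 classes. It had 94.8, 141, 161 and 175 CPM in vascular-gated cells and 13.5, 32.5, 28.4 and 55.6 CPM in tumor-gated cells. In macrophage, microglia and T-gated cells no library exceeded 1.48 CPM. Vascular-gated cells were above tumor-gated cells by 2.18 ± 0.22 (log2, SE; edgeR adjusted p = 1.93e-08) and tumor-gated above T-gated cells by 4.57 ± 0.34 (adjusted p = 7.50e-11). The 3 low classes did not differ from each other, except that T exceeded macrophages without shSELP 1 (adjusted p = 0.0297). After thinning, 15% (3.21 to 37.9) to 26.5% (21.7 to 31.7) of vascular-gated cells had a Tgfb2 UMI and 0.328% (0.0398 to 1.18) or fewer of macrophage-gated cells, with 0 in both shSELP libraries (limits 0.997% and 0.561%), at median depths of 3875 to 7443 and 9486 to 16597 UMIs. These limits hold for the thinned depth only. At full depth, 4 of 376 (shSELP 1) and 2 of 666 (shSELP 2) macrophage-gated cells had a Tgfb2 UMI. Outside the 5 classes, the few astrocyte-gated cells had 37.9 ± 31.5 CPM and the few fibroblast-gated cells 30.6 ± 58.0 CPM, near the tumor mean of 32.5 CPM. Of the 485 vascular UMIs, 426 were in endothelial-gated and 59 in the fewer mural-gated cells. By level both had Tgfb2, at 155 ± 72 CPM in endothelial-gated and 109 ± 60 CPM in mural-gated cells.

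Tgfb3 (chromosome 12, 86056745 to 86079041), the third isoform, was low in all 5 classes. Its mean was 13.2 ± 2.65 CPM in tumor-gated, 11.7 ± 16.0 in vascular-gated, 6.85 ± 3.88 in macrophage-gated, 5.16 ± 3.65 in microglia-gated and 1.31 ± 0.623 CPM in T-gated cells. The first 4 classes did not differ from one another in edgeR, and T-gated cells were below microglia by 2.16 ± 0.67 (log2, SE; adjusted p = 0.00856, and 0.0567 without shNC 2). The vascular mean rests on mural-gated cells of shSELP 2, which held 25 of its 31 UMIs. Without that library tumor-gated cells were above vascular-gated cells by 1.93 (adjusted p = 0.0162), and macrophages above them by 1.57 (adjusted p = 0.0436).

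Inhba, which encodes the subunit of activin A (chromosome 13, 16011851 to 16031621), was highest in macrophage-gated cells among the 5 classes. Its level in macrophage-gated cells was 139, 168, 194 and 329 CPM, against at most 29.4 CPM in any library of the other 4 classes. Macrophages exceeded vascular-gated cells, the next class by mean, by 5.22 ± 0.57 (log2, SE; edgeR adjusted p = 4.44e-08), and the 4 lower classes did not differ from their neighbours. The fitted difference of vascular minus microglia, -0.41 on the log2 scale, had the sign opposite to that of the means (edgeR adjusted p = 0.662). Microglia were above tumor-gated cells (adjusted p = 0.0193), a call that rests on shSELP 1, which held 102 of 108 microglial UMIs. Without that library microglia were below T-gated cells (adjusted p = 0.0111) and tumor-gated below T-gated cells (adjusted p = 0.0189). Within the vascular class, 26 of the 40 UMIs were in mural-gated cells. Neutrophil-gated cells, outside the 5 classes, had 195 ± 88.3 CPM, near the macrophage mean of 207 CPM. The few fibroblast-gated cells had 148 ± 289 CPM. After thinning, 15.4% (12.7 to 18.4), 18.6% (15.5 to 21.9), 17.9% (14.2 to 22.2) and 28.2% (24.8 to 31.8) of macrophage-gated cells had an Inhba UMI and 0.244% (0.00617 to 1.35) to 0.679% (0.140 to 1.97) of T-gated cells, at median depths of 9486 to 16597 and at most 7634 UMIs.

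The receptor genes had different orders. Tgfbr1, the type I receptor and kinase (chromosome 4, 47353222 to 47414931), had 189, 216, 284 and 241 CPM in microglia-gated cells, above every value of any other class. Macrophage-gated cells followed with 72.8, 92.0, 83.7 and 70.0 CPM, and T-gated cells were lowest with 5.12, 9.70, 10.9 and 10.0 CPM. Microglia exceeded macrophages by 1.33 ± 0.14 (log2, SE; edgeR adjusted p = 8.24e-08). Vascular-gated (31.4 ± 8.48 CPM) and tumor-gated cells (27.5 ± 4.38 CPM) did not differ (adjusted p = 0.979), and both were above T-gated cells. After thinning, 31.6% (24.5 to 39.5) to 48.3% (42.8 to 53.9) of microglia-gated cells and 1.24% (0.404 to 2.87) to 2.91% (1.46 to 5.15) of T-gated cells had a Tgfbr1 UMI, at median depths of 8100.0 to 15834 and at most 7634 UMIs.

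Tgfbr2, the ligand-binding type II receptor (chromosome 9, 116084293 to 116175360), was highest in vascular-gated cells, with 172, 179, 223 and 207 CPM, and microglia-gated cells, with 143, 147, 159 and 146 CPM. These 2 classes were not separated in edgeR (adjusted p = 0.516), and the fitted difference, -0.12 for vascular minus microglia on the log2 scale, had the sign opposite to that of the means. T-gated cells had 96.9 ± 10.3, macrophage-gated cells 51.3 ± 3.47 and tumor-gated cells 13.9 ± 3.64 CPM, each step called (adjusted p = 4.71e-06 for microglia against T, 9.13e-04 for T against macrophage and 1.74e-12 for macrophage against tumor). Endothelial-gated cells had 241 ± 32.8 CPM and mural-gated cells 81.5 ± 29.0 CPM. Tumor-gated cells thus had the lowest level of Tgfbr2 and of Tgfb1 among the 5 classes.

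Smad7 and Skil are feedback inhibitors that the pathway itself induces. Smad7, an inhibitory SMAD that blocks the receptors (chromosome 18, 75367529 to 75395935), was lowest in macrophage-gated cells, with 29.9, 28.2, 35.6 and 28.9 CPM. It had 230.0, 274, 279 and 270 CPM in T-gated cells, 218, 152, 298 and 280 CPM in microglia-gated cells, and 219, 150, 240 and 184 CPM in vascular-gated cells. T-gated cells and microglia did not differ (edgeR adjusted p = 0.938), and microglia exceeded vascular-gated cells by a fitted 0.79 ± 0.18 (log2, SE; adjusted p = 5.78e-04). The CPM values of microglia (mean 236.9) and vascular-gated cells (mean 198.5) overlapped, a smaller gap than the fitted one. Tumor-gated cells (69.9 ± 15.5 CPM) were above macrophages by 0.51 ± 0.18 (adjusted p = 0.0133). That call was lost without shNC 1 (adjusted p = 0.0830), without shNC 2 (0.0773) and without shSELP 2 (0.0750). After thinning, 27.9% (20.4 to 36.5) to 45.9% (40.4 to 51.4) of microglia-gated and 3.96% (2.60 to 5.75) to 7.34% (4.89 to 10.5) of macrophage-gated cells had a Smad7 UMI, at median depths of 8100.0 to 15834 and 9486 to 16597 UMIs.

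Skil (chromosome 3, 31095058 to 31122577), whose product SnoN represses SMAD-driven transcription, was highest in myeloid cells. Microglia-gated cells had 304, 272, 541 and 406 CPM and macrophage-gated cells 269, 266, 327 and 271 CPM, and these classes did not differ in edgeR (adjusted p = 0.397). T-gated (202 ± 24.4 CPM), vascular-gated (149.6 ± 58.1) and tumor-gated cells (63.6 ± 8.90) followed, each step called.

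Tgfbi, a secreted matrix protein named for its induction by TGF-beta (chromosome 13, 56609523 to 56639562), was highest in macrophages among the 5 classes. Macrophage-gated cells had 1579, 1505, 1644 and 1600.0 CPM, and 85.2% (82.1 to 87.9) to 88.9% (86.2 to 91.2) of them had a UMI after thinning. Microglia-gated cells had 357, 275, 267 and 133 CPM, and had a UMI in 10.1% (5.90 to 15.9) to 22.6% (15.1 to 31.8) after thinning. Outside the 5 classes, neutrophil-gated cells had 957 ± 195 CPM and the few fibroblast-gated cells 663 ± 551 CPM. The level was 2.95 ± 0.37 higher in macrophages than in microglia (log2, SE; edgeR adjusted p = 1.20e-06), and microglia were above vascular-gated cells (adjusted p = 7.06e-06). Vascular-gated (52.1 ± 52.5 CPM), T-gated (22.6 ± 14.1) and tumor-gated cells (15.2 ± 9.92) were not separated from their neighbours, except that vascular-gated cells exceeded T-gated cells without shSELP 2 (adjusted p = 0.0355). In T-gated cells, 0.529% (0.0641 to 1.90) to 3.23% (1.73 to 5.45) had a Tgfbi UMI after thinning, at median depths of at most 7634 UMIs against 9486 to 16597 in macrophage-gated cells.

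Tgfbi was set against Lyz2, a macrophage gene, in the classes with less of it. Per 100 Lyz2 UMIs, macrophage-gated cells had 17.6, 14.0, 12.5 and 10.0 Tgfbi UMIs. The ratio was 22.6, 19.6, 11.3 and 7.56 in T-gated cells and 14.8, 19.2, 11.6 and 7.91 in microglia-gated cells. In tumor-gated cells it was 21.5, 42.5, 28.6 and 8.62, with only 8 and 5 Tgfbi UMIs in the shSELP libraries, and in vascular-gated cells 19.1, 72.7, 11.5 and 12.9. The ratio was lowest in shSELP 2 in all these classes but the vascular. The part of free RNA in these low levels was not tested.

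In microglia-gated cells the level of Tgfbi depended on which cells were taken. Microglia-gated cells with no UMI of the macrophage markers other than Lyz2, a group chosen after seeing the data, numbered 57, 53, 196 and 102, with median depths of 4658, 7048, 6656 and 4899 UMIs. Their Tgfbi level was 22.4, 29.0, 26.3 and 24.95 CPM, where all microglia-gated cells had 357, 275, 267 and 133 CPM. Smad7 in the same cells was 477, 336, 472 and 366 CPM, above its level in all microglia-gated cells of every library. Skil was 404, 319, 698 and 482 CPM. Most Tgfbi UMIs of the microglia gate in the mix were thus in cells with macrophage marker UMIs, and Smad7 and Skil were higher in the cells without. In the CD11b libraries the same choice left 103 and 133 CPM of Tgfbi, of 506 and 514 CPM in all microglia-gated cells. Cells without these UMIs were shallower than all microglia-gated cells, whose medians were 8551, 13653, 7869 and 8828 UMIs, so the choice also selects on depth.

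**Figure D2:**
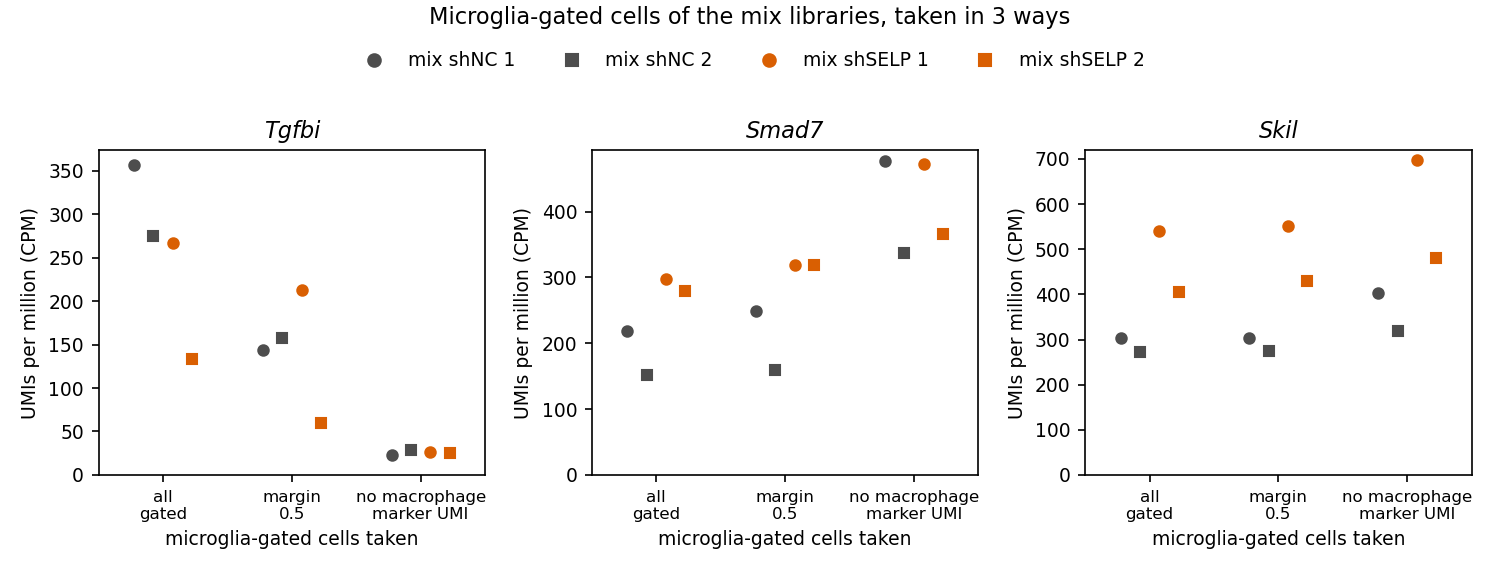
Level of Tgfbi, Smad7 and Skil (CPM) in microglia-gated cells of the 4 mix libraries, for all gated cells, for a gate margin of 0.5 in place of 0.25, and for cells with no UMI of a macrophage marker other than Lyz2. Points are libraries. Tgfbi is at 22.4 to 29.0 CPM in the last set, Smad7 is then at 336 to 477 CPM and the shSELP libraries are above the shNC libraries for Skil.

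Other genes of the pathway, from a list of 54, of which 53 were in the mix table, were more often higher than lower in vascular-gated cells. Of the 43 tested between classes, 26 were higher in vascular-gated than in tumor-gated cells and 8 lower, 27 and 9 against macrophages, 26 and 8 against microglia, and 29 and 6 against T cells. Over all genes tested the same directions had 3530 and 3325, 3693 and 3829, 3339 and 3342, and 3831 and 3653. Between macrophages and microglia, 12 were higher in macrophages and 8 in microglia, beside 2182 and 1746 of all genes. The largest differences among genes of at least 50 CPM were those of Thbs1, an activator of latent TGF-beta (644 ± 119 against 60.5 ± 35.9 CPM; 3.57 ± 0.34 on the log2 scale), of the matrix gene Fn1 (302 ± 67.3 against 80.7 ± 35.0 CPM; 2.15 ± 0.25) and of Furin, a protease that processes the precursors (158 ± 22.2 against 80.9 ± 10.98 CPM; 1.17 ± 0.14).

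The genes most like each member over the 20 sums were found by Pearson's r of log2(CPM + 10) among 5045 candidates, where the sums share libraries and r is a description. Wfdc17 (r = 0.987), Pla2g7 (0.984) and Il1rn (0.982) were most like Tgfbi. Adora2b (0.952), Slc7a2 (0.952) and Nrg1 (0.951) were most like Inhba. Pcdh1 (0.992), Pls3 (0.991) and Dlc1 (0.988) were most like Tgfb2, and Vamp8 (0.979), Arhgdib (0.977) and Srgn (0.972) most like Tgfb1. The receptor Tgfbr1 was closest to Pla2g15 (0.980), Bri3 (0.960) and Epb41l2 (0.959), and Tgfbr2 to Rcsd1 (0.965), Sipa1 (0.960) and Git2 (0.955). Skil was closest to Nfkbid (0.960), Vsir (0.959) and Pip4k2a (0.951). Lower values were reached for Smad7, with Nek7 (0.894), Saraf (0.877) and Grap (0.867), and for Tgfb3, with Hibadh (0.757), Dpysl3 (0.727) and Slc39a7 (0.709).

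No member was called between shSELP and shNC tumors in any of the 5 classes. With 2 mix libraries per group and edgeR fits over all genes of a class, the share of all genes called was 0.648% in tumor-gated cells (53 higher in shSELP and 12 lower of 10030 tested), 0.647% in macrophage-gated cells (31 and 36 of 10351) and 1.13% in microglia-gated cells (71 and 29 of 8828). It was 0.072% in T-gated cells (2 and 5 of 9724) and 0.0% in vascular-gated cells (0 of 6735, with 984 genes at an unadjusted p under 0.05 and 28 called by DESeq2). Of the members, 8 were tested in tumor-gated and macrophage-gated cells and 7 in each of the others. At an unadjusted p under 0.05 there were 1 in tumor-gated (1463 of the 10030 genes tested), 1 in macrophage-gated (1301 of 10351), 5 in microglia-gated (1469 of 8828), 2 in T-gated (916 of 9724) and 1 in vascular-gated cells (984 of 6735). DESeq2 called 1, Skil in microglia-gated cells. The median log2 fold change of the members tested was 0.01 in tumor-gated, 0.09 in macrophage-gated, 0.20 in microglia-gated, 0.15 in T-gated and 0.20 in vascular-gated cells, beside medians over all genes tested of -0.01, -0.00378, 0.01, 0.01 and -0.00223. In each class, the members tested included 5 with a positive log2 fold change. Counts of genes called moved by over 1.5 times when single libraries were left out. They ranged from 20 to 545 in tumor-gated cells (20 without shSELP 2, 37 without shSELP 1, 171 without shNC 1, 545 without shNC 2) and were 428, 196 and 128 in macrophage-gated cells without shNC 2, shSELP 1 and shSELP 2. In microglia-gated cells they were 280, 165, 327 and 881 without shNC 1, shNC 2, shSELP 1 and shSELP 2. In T-gated cells they were 109, 95 and 237 without shNC 2, shSELP 1 and shSELP 2, and in vascular-gated cells 1, 116 and 257 without shNC 1, shSELP 1 and shSELP 2.

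**Figure D3:**
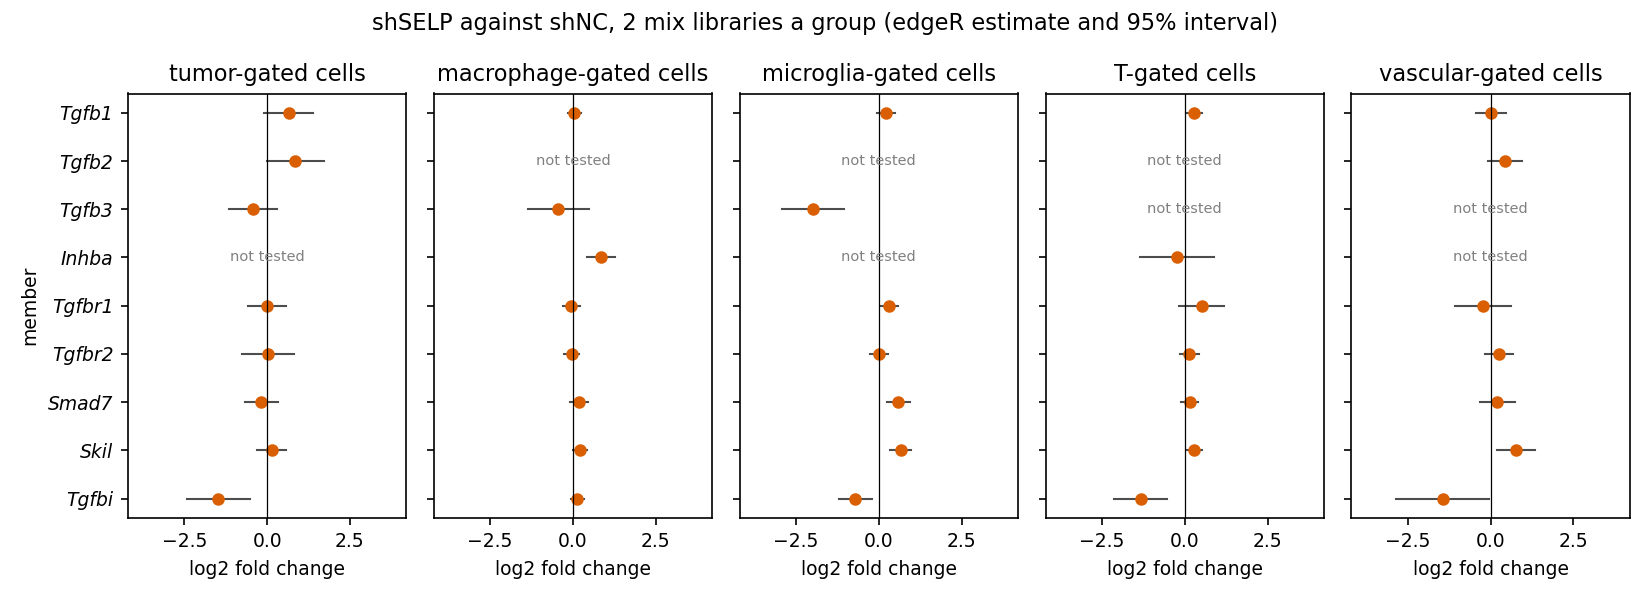
Log2 fold change of each member, shSELP against shNC, in the 5 gated classes of the mix libraries (points, edgeR estimate; lines, 95% interval; 2 libraries per group). No member passed an adjusted p of 0.05, and the intervals that lie away from 0 include those of Inhba in macrophage-gated cells and of Skil, Smad7, Tgfb3 and Tgfbi in microglia-gated cells.

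Inhba in macrophage-gated cells had 139 and 168 CPM in the shNC libraries and 194 and 329 CPM in the shSELP libraries. The groups did not overlap, and shSELP 2 stood above the other libraries. The log2 fold change was 0.85 ± 0.21 (SE; edgeR adjusted p = 0.140). It was 0.39 without shSELP 2 (adjusted p = 0.263) and reached a call without shNC 2 (0.96, adjusted p = 2.40e-05) and without shSELP 1 (1.18, adjusted p = 1.48e-04), where a group of 1 library is assumed to vary like the other. The library number as a block and no filter on low counts also gave a call of Inhba in edgeR, and DESeq2 did not. Macrophage-gated cells of shSELP 2 were also the deepest, with a median of 16597 UMIs in the cells thinned, against 9486 to 10727 in the other libraries, and on cells thinned to 2000 UMIs the log2 fold change was 0.51 (adjusted p = 0.509). In microglia-gated cells Inhba had 0, 4, 102 and 2 UMIs and did not pass the filter on low counts. The 102 UMIs of shSELP 1 were in 17 of 342 cells, and 5 cells held 71 of them.

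In microglia-gated cells both feedback inhibitors had higher values in the shSELP libraries without passing the threshold. Skil was at 304 and 272 CPM in shNC and at 541 and 406 CPM in shSELP, a log2 fold change of 0.66 ± 0.16 (SE; edgeR adjusted p = 0.0680). DESeq2 called it (0.65, adjusted p = 0.0333), as did edgeR without shNC 1 (0.76, adjusted p = 0.0410), without shSELP 1 (0.46, adjusted p = 0.0495) and without shSELP 2 (0.83, adjusted p = 1.36e-06). Smad7 was at 218 and 152 CPM in shNC and at 298 and 280 CPM in shSELP (0.59 ± 0.18, adjusted p = 0.130), and was called without shNC 1 (0.89, adjusted p = 0.0110), without shSELP 1 (0.58, adjusted p = 0.00937) and without shSELP 2 (0.62, adjusted p = 0.00151), while without shNC 2 it was at 0.31 (adjusted p = 0.707). Skil without shNC 2 was at 0.54 (adjusted p = 0.335). In the microglia-gated cells with no UMI of a macrophage marker other than Lyz2, the log2 fold change of Smad7 was 0.03 (adjusted p = 0.990), with overlapping groups, and that of Skil 0.69 (adjusted p = 0.508). Tgfbr1 had 189 and 216 CPM in shNC and 284 and 241 CPM in shSELP (0.31 ± 0.14, adjusted p = 0.299, with 0.17 to 0.45 over all alternatives). Tgfb3 had 9, 19, 9 and 3 UMIs there (-1.98 ± 0.48, adjusted p = 0.0680).

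Tgfbi was lower in the shSELP libraries of every class but macrophages and vascular cells. In microglia-gated cells it had 357 and 275 CPM in shNC and 267 and 133 CPM in shSELP, without overlap, a log2 fold change of -0.71 ± 0.25 (SE; edgeR adjusted p = 0.187). It was called without shNC 2 (-0.92, adjusted p = 0.00460) and without shSELP 1 (-1.27, adjusted p = 1.97e-11), and was at -0.32 without shSELP 2 and at -0.49 without shNC 1. With a gate margin of 0.5 the value was -0.17 (adjusted p = 0.867), with 144 and 157 CPM in shNC and 213 and 60.2 CPM in shSELP. In cells with no UMI of a macrophage marker other than Lyz2 it was -0.03 (adjusted p = 0.992). In T-gated cells Tgfbi had 33.2 and 33.8 CPM against 3.79 and 19.8 CPM (-1.33 ± 0.41, adjusted p = 0.392, and -3.07 without shSELP 2, adjusted p = 3.21e-11, and -0.77 without shSELP 1), and in tumor-gated cells 29.1 and 15.1 CPM against 9.47 and 6.95 CPM (-1.47 ± 0.49, adjusted p = 0.215, and -1.88 without shNC 2, adjusted p = 0.00197, and -0.87 without shNC 1). The T-gated values rest on few cells, as 5 cells held 82 of 110, 89 of 108, 9 of 9 and 63 of 83 of the Tgfbi UMIs. In vascular-gated cells the groups overlapped, at 23.7 and 128 CPM against 45.3 and 11.4 CPM (-1.45 ± 0.71, adjusted p = 0.397). The vascular value was 0.42 without shNC 2 (adjusted p = 0.911), -2.86 without shSELP 1 (adjusted p = 8.88e-05) and -0.91 without shSELP 2.

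The difference in response between microglia-gated and macrophage-gated cells was tested directly over 10298 genes, of which 1.51% were called (78 higher and 78 lower in microglia minus macrophage). Of the 8 members tested, 1 was called, Tgfbi. Its response was lower in microglia-gated than in macrophage-gated cells by a log2 difference of -0.91 ± 0.22 (SE; edgeR adjusted p = 0.0424), with both shSELP libraries below both shNC libraries in microglia and above them in macrophages. The call was lost without shSELP 2 (-0.48, adjusted p = 0.157), with a gate margin of 0.5 (-0.54, adjusted p = 0.517) and in microglia-gated cells with no UMI of a macrophage marker other than Lyz2 (-0.17, adjusted p = 0.992). The value was -1.41 without shSELP 1. Of the other members, Inhba was at 3.06 (edgeR adjusted p = 0.323). Its microglial UMIs, 0, 4, 102 and 2 in the order of the libraries, did not pass the filter in microglia-gated cells alone. No conclusion on microglia is therefore drawn from its values. Inhba was at 2.52 without shNC 1, at 4.12 without shSELP 2 and at -1.45 without shSELP 1, the library with nearly all its microglial UMIs. Without shNC 2 the microglial shNC group had 0 UMIs, so the fitted 8.43 is not a measured fold. Tgfb3 (-1.63, adjusted p = 0.296) was called without shNC 1 (-2.49, adjusted p = 0.0331) and was at -0.72 without shNC 2, -2.53 without shSELP 1 and -0.98 without shSELP 2. Without shSELP 2 the count of genes called was 265. Of the pathway list 34 genes were tested and 2 called, both lower: the receptor gene Acvrl1 (-0.87 ± 0.19, adjusted p = 0.0225) and Fn1 (-0.95 ± 0.23, adjusted p = 0.0399). Acvrl1 was not called without shNC 2 (-0.76, adjusted p = 0.167), nor Fn1 without shSELP 2 (-0.60, adjusted p = 0.116), where Fn1 without shSELP 1 was at -1.49. Neither was called on cells thinned to 2000 UMIs (Acvrl1 -1.38, adjusted p = 0.162, and Fn1 -0.63, adjusted p = 0.805) or in the microglia-gated cells with no UMI of a macrophage marker other than Lyz2 (-0.41, adjusted p = 0.9501, and -0.82, adjusted p = 0.727). The members had a median difference of 0.24, the pathway list of 0.08 and all genes tested of 0.00206.

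The remaining differences between the groups were not called either. Tgfb1 had log2 fold changes from 0.00325 in vascular-gated to 0.65 in tumor-gated cells, where the groups did not overlap, and Tgfbr2 from -0.03 in macrophage-gated (0.07 without shSELP 2) to 0.25 in vascular-gated cells. Tgfb2 had 13.5 and 32.5 CPM in shNC tumor-gated cells and 28.4 and 55.6 CPM in shSELP, with overlapping groups (0.85 ± 0.43, edgeR adjusted p = 0.392, and 1.54 without shNC 2, adjusted p = 0.00171, and 0.33 without shNC 1 or without shSELP 2). In vascular-gated cells it had 94.8 and 141 CPM against 161 and 175 CPM (0.43 ± 0.26, adjusted p = 0.480, and 0.22 without shNC 1 and 0.82 without shNC 2, the ends of the range over all alternatives). Skil in vascular-gated cells had 83.0 and 131 CPM against 222 and 163 CPM without overlap (0.77 ± 0.30, adjusted p = 0.318, and 1.21 without shNC 2, with 0.38 to 1.21 over all alternatives). Tgfb3 in macrophage-gated cells had 12.3 and 4.22 CPM against 3.95 and 6.92 CPM (-0.44 ± 0.47, adjusted p = 0.762) and was called without shNC 2 (-1.03, adjusted p = 0.0200), with the opposite sign without shNC 1 (0.55, adjusted p = 0.762), -1.02 without shSELP 2 and -0.19 without shSELP 1.

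In the pathway list, differences between the groups in tumor-gated cells are given for genes of at least 50 CPM. Of the 28 genes tested there that are not targets, edgeR called 0. Id3, a SMAD-driven target that antagonizes helix-loop-helix factors, had 416 and 359 CPM against 231 and 253 CPM (-0.71 ± 0.18, adjusted p = 0.118, and -0.85 without shNC 2, adjusted p = 0.00338). Nedd4l (-0.64 ± 0.25) and Tgif1 (-0.50 ± 0.19) followed, and none of these 3 was called.

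In the other 4 classes 0 genes of the list were called by edgeR, of 32 tested in macrophage-gated, 28 in microglia-gated, 30 in T-gated and 34 in vascular-gated cells. At an unadjusted p under 0.05 there were 5, 11, 5 and 7 in these classes, beside 1301 of 10351, 1469 of 8828, 916 of 9724 and 984 of 6735 genes in all, and DESeq2 called Thbs1 and Id2 in macrophage-gated and Inhbb in vascular-gated cells. The largest values among genes of at least 50 CPM were in macrophage-gated cells those of Thbs1 (0.49 ± 0.12, adjusted p = 0.116), Id2 (0.49 ± 0.10, adjusted p = 0.0905) and Fn1 (0.37 ± 0.19). In microglia-gated cells large values were those of Thbs1 (0.93 ± 0.33) and of Acvrl1 (-0.77 ± 0.17, adjusted p = 0.0519), which had 70.5 and 72.0 CPM in shNC and 41.5 and 46.5 CPM in shSELP. In T-gated cells they were those of Furin (0.39 ± 0.14), Itgav (0.36 ± 0.13) and Pmepa1 (0.31 ± 0.13). In vascular-gated cells large values were those of Inhbb, another activin subunit, with 160.0 and 35.2 CPM against 16.5 and 5.71 CPM (-2.77 ± 0.74, adjusted p = 0.239), and of the latency protein gene Ltbp4 (1.35 ± 0.43). The median log2 fold change of the list was -0.06 in tumor-gated, 0.09 in macrophage-gated, 0.26 in microglia-gated, 0.13 in T-gated and 0.17 in vascular-gated cells.

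The CD11b libraries, 1 per group, give ratios with an interval for counting error only (exact conditional binomial, 95%) and no test. In macrophage-gated cells (1540 in shNC and 1722 in shSELP) Tgfbi had 1278 CPM in shNC and 1648 CPM in shSELP, a ratio of 1.29 (1.25 to 1.33). Inhba, at 60.2 and 66.1 CPM, had a ratio of 1.10 (0.956 to 1.26), at levels below those of every mix library. Ratios above 1 were also those of Skil (1.25, 1.17 to 1.33), Tgfbr1 (1.20, 1.09 to 1.33) and Tgfbr2 (1.32, 1.14 to 1.53). Smad7 was at 42.3 and 27.5 CPM, a ratio of 0.652 (0.538 to 0.788), and Tgfb1 at 179 and 152 CPM, a ratio of 0.849 (0.780 to 0.924). The median log2 ratio of all genes in these cells was 0.11, so that ratios above 1 are to be read against that shift. With TMM scaling Tgfbi was at 1.20 and Inhba at 1.02.

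In the microglia-gated cells of the CD11b libraries (341 in shNC and 303 in shSELP) Skil had 216 and 281 CPM, a ratio of 1.302 (1.14 to 1.49), and Tgfbr1 had 1.19 (1.02 to 1.38). Smad7 had 120 and 95.7 CPM, a ratio of 0.800 (0.648 to 0.984), and Tgfb1 157 and 117 CPM, a ratio of 0.750 (0.622 to 0.902). Tgfbi was at 506 and 514 CPM (1.02, 0.926 to 1.12) and Tgfbr2 at 139 and 130.0 CPM (0.937, 0.778 to 1.13). The median log2 ratio of all genes was 0.05. The Skil ratio lay on the same side as the mix difference, which was not called, and those of Smad7 and Tgfb1 on the opposite side. With the CD11b labels exchanged, each of these ratios would change side. Inhba had 13 and 9 UMIs and Tgfb3 9 and 5, and Tgfb2 had 0 in both CD11b libraries there (at most 1.54 and 1.86 CPM at 3 counts).

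**Figure D4:**
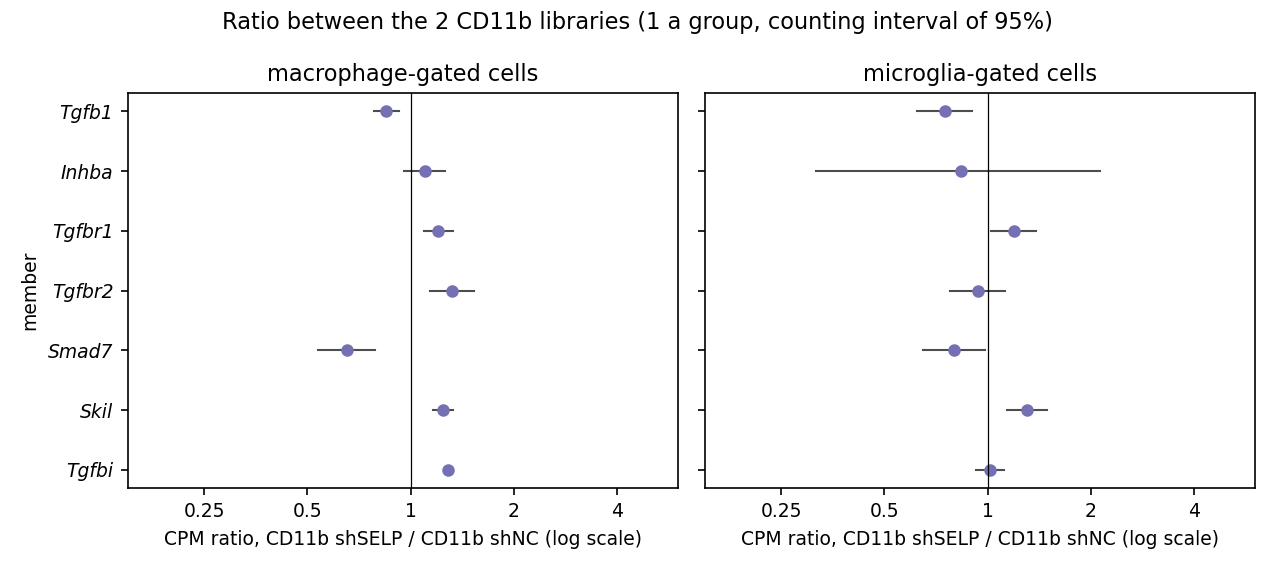
Ratio of CPM between the CD11b shSELP and CD11b shNC libraries (log scale) in macrophage-gated and microglia-gated cells, with the 95% interval for counting error. Tgfb2 and Tgfb3 are left out for too few UMIs. Smad7 and Tgfb1 lie below 1 in both classes and Skil and Tgfbr1 above 1.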

How the data were processed

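The counts were deposited by the authors as raw UMI counts per cell and gene, made with Cell Ranger 1.3 on mm10 from 48 entries, 8 for each of 6 libraries. The authors state filters on mitochondrial share and gene number, but 446 of 9172 mix and 189 of 5724 CD11b barcodes in the tables failed the same limits and were left out here. The numbers of barcodes per group were similar. No doublet caller was run. The 9 members, the pathway list and the 104 markers of 14 classes were chosen with earlier results of these data known. Each kept cell was scored by the mean z-score of ln(1 + 10000 × UMI/total) over the markers of each class, and went to its top class with at least 2 markers detected if the score was over 0 and 0.25 above the next. UMIs were summed per library and class. Groups, pairs of classes and the difference in response were tested, two-sided, with edgeR 4.0.16 in R 4.3.3 (filterByExpr, TMM, quasi-likelihood F test, Benjamini-Hochberg over all genes tested, threshold 0.05), with an SE taken as the absolute log2 fold change over the square root of F, and the fits were tested on simulated data. Alternatives were DESeq2 1.42.0, no filter on low counts, leaving out each library, the library number as a block, cells thinned to 2000 UMIs, gate margins of 0 and 0.5, a gate on the share of markers detected, tumor-gated cells of at least 5000 UMIs, endothelial-gated cells alone and TMM scaling for the CD11b ratios. Chosen after seeing the data were microglia-gated cells with no UMI of the 7 macrophage markers other than Lyz2, and leaving out each library in the test of the difference in response. All 9 members are named. Pathway genes are named where called between groups or in the difference in response, and otherwise the up to 3 of at least 50 CPM with the largest absolute log2 fold change in a comparison. Not every gene that meets this rule is given. The genes most like a member were taken for members of at least 100 UMIs. Levels came from Python 3.11.15 (matplotlib 3.10.9, pandas 2.3.3, scipy 1.17.1, numpy 2.4.6), as did exact 95% intervals for shares (Clopper-Pearson) and figures. Gene positions are from GENCODE M21.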

Additional observations from a re-analysis of the deposited data

Results flagged for a closer look

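The response of Tgfbi to shSELP differed between microglia-gated and macrophage-gated cells of the mix in a test of the difference itself (log2 difference of -0.91, edgeR adjusted p = 0.0424), a difference not called with a gate margin of 0.5, without shSELP 2 or in microglia-gated cells free of macrophage marker UMIs other than Lyz2.

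The mix and CD11b libraries, taken on different days by the labels alone, went opposite ways for 2 members in microglia-gated cells, and neither difference was tested. Neither member was called between groups in the mix. The share of all genes that go opposite ways in this manner was not computed, so no result about the members is drawn from it. The contrast rests on the direction of the CD11b comparison, taken from titles, source names, genotypes and the column prefixes of the counts. Most description lines of the shSELP entries contradict that direction. If turned, the CD11b ratios of Tgfb1 and Smad7 would lie on the side of the mix, and that of Skil on the opposite side. Tgfb1 was higher in both mix shSELP libraries (190.0 and 171 CPM) than in both shNC libraries (142 and 159 CPM), and its ratio between the CD11b libraries was 0.750. Smad7 was higher in both mix shSELP libraries (298 and 280 CPM) than in both shNC libraries (218 and 152 CPM), a direction absent in microglia-gated cells free of macrophage marker UMIs other than Lyz2 (log2 fold change 0.03, groups overlapping), and its ratio between the CD11b libraries was 0.800. Day, sort and library cannot be told apart in these contrasts.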

How the results depend on the processing

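With 2 libraries per group, counts of genes called between groups moved with most settings, where the fits of the report called no member. In tumor-gated cells (65 called) the count was 575 with no filter on low counts, 3 in cells thinned to 2000 UMIs, 21 with a gate margin of 0, 40 with the gate on shares, and 20 to 545 leaving out 1 library. In macrophage-gated cells (67) it was 530 with no filter, 341 with the block, 5 thinned, 24 with a margin of 0.5, 39 with the gate on shares, and 72 to 428 leaving out 1 library. In microglia-gated cells (100) it was 530 with no filter, 683 with the block, 10 thinned, 252 with a margin of 0, 65 with the gate on shares, and 165 to 881 leaving out 1 library. In T-gated cells (7) it was 16 with DESeq2, 250 with no filter, 13 with the block, 2 with a margin of 0, 1 with a margin of 0.5, 2 with the gate on shares, and 7 to 237 leaving out 1 library. In vascular-gated cells (0) it was 28 with DESeq2, 377 with no filter, 13 with the block, 19 thinned, 5 in endothelial-gated cells, and 0 to 257 leaving out 1 library. Some members were called in such settings, among them Inhba in macrophage-gated cells with no filter (0.84, adjusted p = 1.92e-09) and with the block (0.80, adjusted p = 2.09e-04), where its adjusted p ranged up to 0.714 with DESeq2. In microglia-gated cells a margin of 0 called Skil (adjusted p = 0.0499), Smad7 (0.0139), Tgfb3 (0.0281) and Tgfbi (0.0393). Tgfbi in vascular-gated cells ranged from -2.86 to 0.42 leaving out 1 library, a change of sign. The difference in response had 156 genes called, 30 when thinned and 142 to 265 leaving out 1 library, and for Tgfbi -0.54 with a margin of 0.5 and -1.41 to -0.48 leaving out 1 library. In microglia-gated cells without macrophage marker UMIs other than Lyz2, chosen after seeing the data, 0 genes were called between groups (438 at an unadjusted p under 0.05), 36 in the difference in response, and Tgfbi was at -0.17.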
